A study of Mus musculus with 3 samples.

Results

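The genes examined here encode 10 enzymes and regulators of branched-chain amino acid breakdown: Bcat1, Bcat2, Bckdha, Bckdhb, Dbt, Ppm1k, Ivd, Mccc1, Mccc2 and Hibadh. They were chosen with earlier results of these data known, and found by gene symbol in the platform's probe table. All 10 were measured, by 11 probe sets, among 19938 genes. Expression was measured with 1 single-colour Affymetrix array for each of 3 mouse samples. DiBA is labelled as a cultured cell sample, and the series title links its name to direct conversion into brown adipocytes. BA has brown adipose tissue as its labelled source, although its description calls it cultured. The fibroblasts are cultured mouse fibroblasts. The labels give no genotype, strain, age, culture day or conversion factor for any sample. With 1 array in each group there is no spread between replicates and no test, so every value below describes these arrays only.

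Leucine, isoleucine and valine are first transaminated to branched-chain keto acids, in the cytosol by Bcat1 and in mitochondria by Bcat2. The keto acids are then decarboxylated inside mitochondria by the branched-chain keto acid dehydrogenase complex, the committed and irreversible step, which is shut off by phosphorylation and switched on again by the phosphatase Ppm1k. Separate mitochondrial enzymes then carry the leucine, isoleucine and valine skeletons towards acetyl-CoA, acetoacetate and succinyl-CoA, and brown fat is known as a tissue that takes up and oxidises these amino acids when thermogenic.

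The upstream regions of 5 members are shown, both aminotransferases and the leucine enzymes Ivd, Mccc1 and Mccc2. They are the 250 bases before an annotated start in RefSeq, build GRCm38.p6, printed 5′ to 3′ on the gene's strand. Capitals mark CCAAT or its reverse complement ATTGG and, in Mccc2, also the E-box CACGTG. The run of 8 capitals in Mccc2 is a pair of overlapping CCAAT matches on opposite strands.
Bcat1 (chr6:145076158-145076407, minus strand): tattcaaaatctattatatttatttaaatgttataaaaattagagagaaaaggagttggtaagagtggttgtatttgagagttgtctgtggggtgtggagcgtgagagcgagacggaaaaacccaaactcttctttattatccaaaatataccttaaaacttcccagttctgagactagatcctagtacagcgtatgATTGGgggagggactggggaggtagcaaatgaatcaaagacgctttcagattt
Bcat2 (chr7:45569903-45570152, plus strand): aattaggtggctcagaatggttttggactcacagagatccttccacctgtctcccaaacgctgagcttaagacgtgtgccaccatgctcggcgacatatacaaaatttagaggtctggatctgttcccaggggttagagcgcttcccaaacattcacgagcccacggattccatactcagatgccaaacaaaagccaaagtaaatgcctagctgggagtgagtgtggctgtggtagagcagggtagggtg
Ivd (chr2:118861744-118861993, plus strand): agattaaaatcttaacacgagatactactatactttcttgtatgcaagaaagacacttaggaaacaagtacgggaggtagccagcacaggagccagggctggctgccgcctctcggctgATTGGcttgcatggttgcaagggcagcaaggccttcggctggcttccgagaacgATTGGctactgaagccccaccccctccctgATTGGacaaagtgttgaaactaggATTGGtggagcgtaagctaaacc
Mccc1 (chr3:36000679-36000928, minus strand): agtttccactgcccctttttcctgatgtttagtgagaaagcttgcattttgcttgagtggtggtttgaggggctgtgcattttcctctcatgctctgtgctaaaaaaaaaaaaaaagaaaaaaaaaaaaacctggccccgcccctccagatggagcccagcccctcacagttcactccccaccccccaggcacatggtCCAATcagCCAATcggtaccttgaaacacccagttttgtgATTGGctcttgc
Mccc2 (chr13:100015640-100015889, minus strand): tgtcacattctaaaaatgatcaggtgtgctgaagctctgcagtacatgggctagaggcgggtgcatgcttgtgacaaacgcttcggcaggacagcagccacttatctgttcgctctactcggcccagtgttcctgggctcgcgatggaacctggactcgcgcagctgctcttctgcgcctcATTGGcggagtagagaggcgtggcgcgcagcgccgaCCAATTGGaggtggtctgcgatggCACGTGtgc

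Bcat1 and Bcat2 each have a further start in the table, not printed, and 9 of the 10 members had at least 1 entry, Dbt being the member without an entry. The windows searched ran 250 bases before to 50 bases after each start, on both strands. CCAAT was looked for after the sequences had been seen. It occurred in 8 of the 12 windows of these 9 genes, while 37.4% of all 32851 windows in the table held it. At least 2 matches occurred in 5 of the 12 windows, 1 each of Bckdhb, Ppm1k, Ivd, Mccc1 and Mccc2, against 11.7% of all windows. Bcat1 had 1 match at its upstream start, which is printed, and none at its other start. Hibadh had 1 match, and neither Bcat2 nor Bckdha had any. CACGTG occurred in 1 gene, Mccc2, and in 7.15% of all windows. The ERR-type element TCAAGGTCA, present in 0.423% of all windows, the perfect direct repeat of the PPAR and RXR type with a single spacer base (0.0396%) and the palindromic NRF1-type element (0.971%) were not found in these 12 windows. These matches describe letters in the windows and were not tied to the expression values.

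The sample labels were checked first against marker lists. For scale, 8.54% of all genes were called higher and 7.67% lower in DiBA than in fibroblasts, by the 2-fold rule given below. In BA the shares were 9.51% and 9.59%. All 6 brown adipocyte markers were at least 2-fold higher in DiBA and in BA than in fibroblasts, with summed intensities of 31540 in DiBA, 32809 in BA and 204 in fibroblasts. The 6 fibroblast markers summed to 5893 in DiBA, 3275 in BA and 19004 in fibroblasts, and Fn1 alone gave 2799 in DiBA, 850 in BA and 7920 in fibroblasts. Of these 6, 4 were at least 2-fold lower in DiBA and 5 in BA. Pdgfra was called in neither, at 542 in DiBA, 455 in BA and 702 in fibroblasts, and Col3a1 was not called in DiBA. All 8 skeletal muscle markers were at least 2-fold higher in both DiBA and BA, summing to 10793 in DiBA, 12335 in BA and 1017 in fibroblasts. DiBA, labelled as cultured cells, therefore carried muscle transcripts close to the amount in BA. All 6 endothelial markers were higher in both (sums of 2488 in DiBA, 2943 in BA and 393 in fibroblasts), and macrophage and immune markers were higher for 6 of 6 in DiBA and 5 of 6 in BA (sums of 1873 in DiBA, 2015 in BA and 494 in fibroblasts). The 5 hepatocyte markers measured lay under the median of all probe sets on every array, and no marker of any list was at 0. DiBA thus carried muscle, endothelial and immune transcripts above fibroblasts and near the amounts in BA. Whether its RNA came from converted cells alone was not tested. Skeletal muscle also breaks down branched-chain amino acids. The part that other cell types play in the differences from fibroblasts was not tested, and in bulk RNA a different share of a cell type and a different RNA amount per cell cannot be told apart.

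In DiBA, 9 of the 10 members were at least 2-fold higher than in fibroblasts and 1, Bcat1, was lower. A gene was called at 2-fold or more on the log2(intensity + 1) scale where the brighter array reached 69.2, the median of all probe sets, and all 10 members met that level. Over all 19938 genes, 8.54% were called higher and 7.67% lower in DiBA. Exactly equal deposited values, which cannot be called, made up 37% of genes for this pair and 34.5% for BA with fibroblasts. Among the 12557 genes with unequal values, 13.6% were called higher and 12.2% lower in DiBA. The members' median difference was 2.46 (log2), while the median over all genes was 0.00, a value that the ties fix, and -0.05 over genes with unequal values. In BA, the same 9 members were higher and Bcat1 was lower, where 9.51% of all genes were called higher and 9.59% lower (14.5% and 14.6% of genes with unequal values), and the members' median was 2.61. Both comparisons use the same fibroblast array, so they are not independent of each other. The members were chosen with earlier results of these data known, so the shares over all genes are no test of them.

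**Figure D1:**
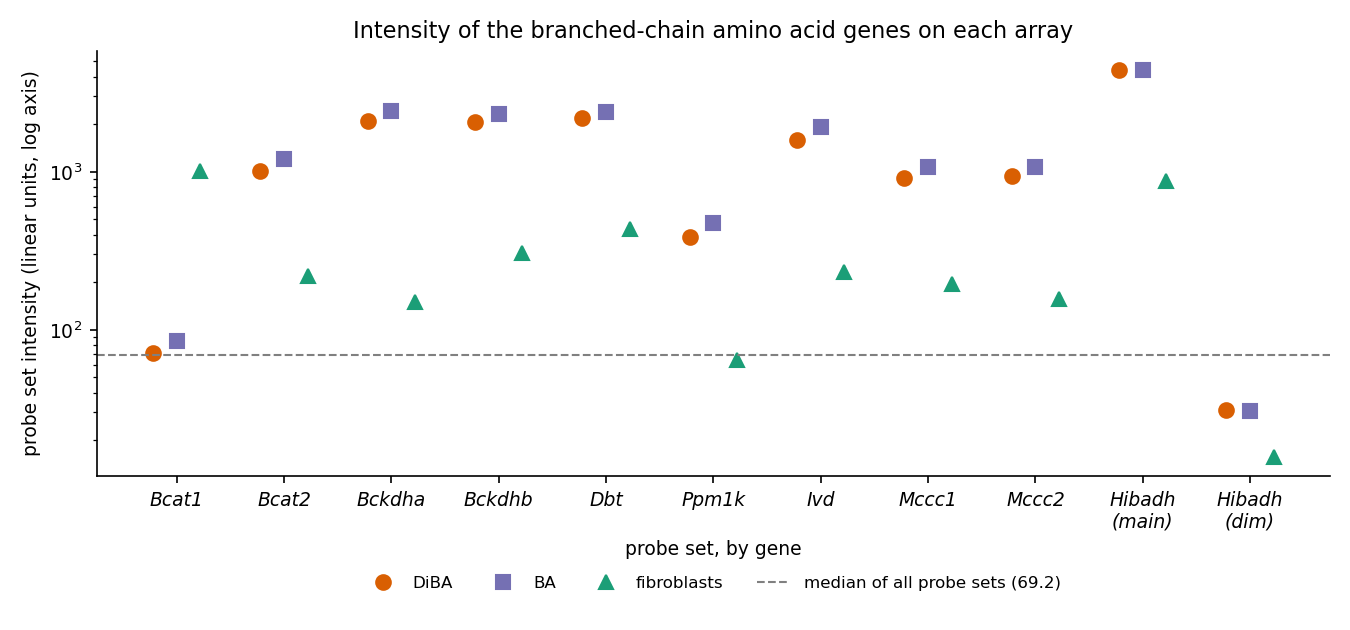
Intensity of each member's probe set on the DiBA (circles), BA (squares) and fibroblast (triangles) arrays, on a log axis, with the median of all probe sets, 69.2, as a dashed line. Bcat1 was brightest on the fibroblast array at 1016, and the other 9 genes were dimmest there.

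The aminotransferases differed in opposite directions. Bcat1, the cytosolic enzyme, had an intensity of 71.7 in DiBA, 84.4 in BA and 1016 in fibroblasts. It was 14-fold lower in DiBA than in fibroblasts (-3.81 in log2), the 20th lowest difference among all genes, and 11.9-fold lower in BA (-3.58), the 115th lowest. In DiBA it stood just above the 69.2 of the median probe set, a range in which background forms a large share of a reading. Bcat2, the mitochondrial enzyme, had intensities of 1007 in DiBA, 1201 in BA and 219 in fibroblasts. It was 4.58-fold higher in DiBA (2.20) and 5.46-fold higher in BA (2.45). The ratio of the Bcat2 signal to the Bcat1 signal was thus 64.1-fold higher in DiBA and 65.1-fold higher in BA than in fibroblasts.

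Genes with the differences most like those of Bcat1 were Cnn1, which encodes the smooth muscle protein calponin, the annexin gene Anxa3 and the potassium channel subunit gene Kcnab1. Kcnab1 read 26 in both DiBA and BA, well under 69.2, so its likeness rests on background readings. Likeness was the distance between the pairs of log2 differences from fibroblasts over these 3 arrays, searched among 11365 genes. Cnn1, at a distance of 0.19, had intensities of 78.3 in DiBA, 99.3 in BA and 1255 in fibroblasts. For Bcat2 the nearest were Fbxo31, a ubiquitin ligase subunit, Ndufaf3, an assembly factor of respiratory complex I, and Bhlhe41, a transcriptional repressor of the circadian system, at distances of 0.01, 0.01 and 0.02. Ndufaf3 had 937 in DiBA, 1108 in BA and 204 in fibroblasts.

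The subunits of the dehydrogenase complex were all higher than in fibroblasts. Bckdha, the alpha subunit of the decarboxylase, had intensities of 2086 in DiBA, 2442 in BA and 149 in fibroblasts. Its difference was the highest of the 10 members, 13.9-fold in DiBA (3.80) and 16.3-fold in BA (4.03), and ranked 163rd from the top of all genes in DiBA. Bckdhb, the beta subunit with which it forms the decarboxylase, had 2067 in DiBA, 2314 in BA and 308 in fibroblasts, or 6.69-fold and 7.49-fold higher in DiBA and BA. Dbt, the transacylase core that passes the acyl group to coenzyme A, had 2206 in DiBA, 2410 in BA and 435 in fibroblasts, differences of 5.06-fold in DiBA and 5.53-fold in BA. The alpha subunit thus differed more from fibroblasts than its partner subunits did, although all 3 were brighter in DiBA and BA.

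Ppm1k, the mitochondrial phosphatase that activates the complex, had 389 in DiBA, 473 in BA and 63.9 in fibroblasts, 6.01-fold higher in DiBA and 7.31-fold in BA. Its fibroblast value lay under 69.2, and with low intensities raised to that level the folds were 5.56 in DiBA and 6.76 in BA. The opposing kinase gene Bckdk had 1006 in DiBA, 1226 in BA and 493 in fibroblasts, differences of 2.04-fold in DiBA and 2.48-fold in BA. The difference of Ppm1k exceeded that of Bckdk by 1.56 log2 units in both samples, or by 1.45 with low intensities raised to 69.2. Phosphorylation of the complex itself was not measured.

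The leucine enzymes were higher by similar amounts. Ivd encodes isovaleryl-CoA dehydrogenase, the first enzyme specific to leucine after the complex. It had 1593 in DiBA, 1912 in BA and 233 in fibroblasts, 6.80-fold higher in DiBA and 8.16-fold in BA. Methylcrotonyl-CoA carboxylase, which carries out the next leucine step, is built from the biotin-bearing alpha subunit Mccc1 and the beta subunit Mccc2. Mccc1 had 912 in DiBA, 1066 in BA and 196 in fibroblasts, 4.63-fold higher in DiBA and 5.41-fold in BA. Mccc2 had 947 in DiBA, 1069 in BA and 157 in fibroblasts, 5.99-fold higher in DiBA and 6.76-fold in BA. All 3 genes were dimmest in fibroblasts, as were the other members except Bcat1.

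Hibadh, the hydroxyisobutyrate dehydrogenase of valine breakdown, was measured by 2 probe sets that differed in brightness and in fold. The brighter had 4407 in DiBA, 4409 in BA and 877 in fibroblasts, 5.02-fold higher in both DiBA and BA. The other had 31.1 in DiBA, 30.4 in BA and 15.7 in fibroblasts, all under 69.2, with folds of 1.92 in DiBA and 1.87 in BA. Their average gave the lowest positive difference of the 10 members, 1.63 in DiBA and 1.62 in BA, and the brighter probe set alone gave 2.33 in both. A further 2 probe sets list Hibadh together with Top2a and were not used.

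**Figure D2:**
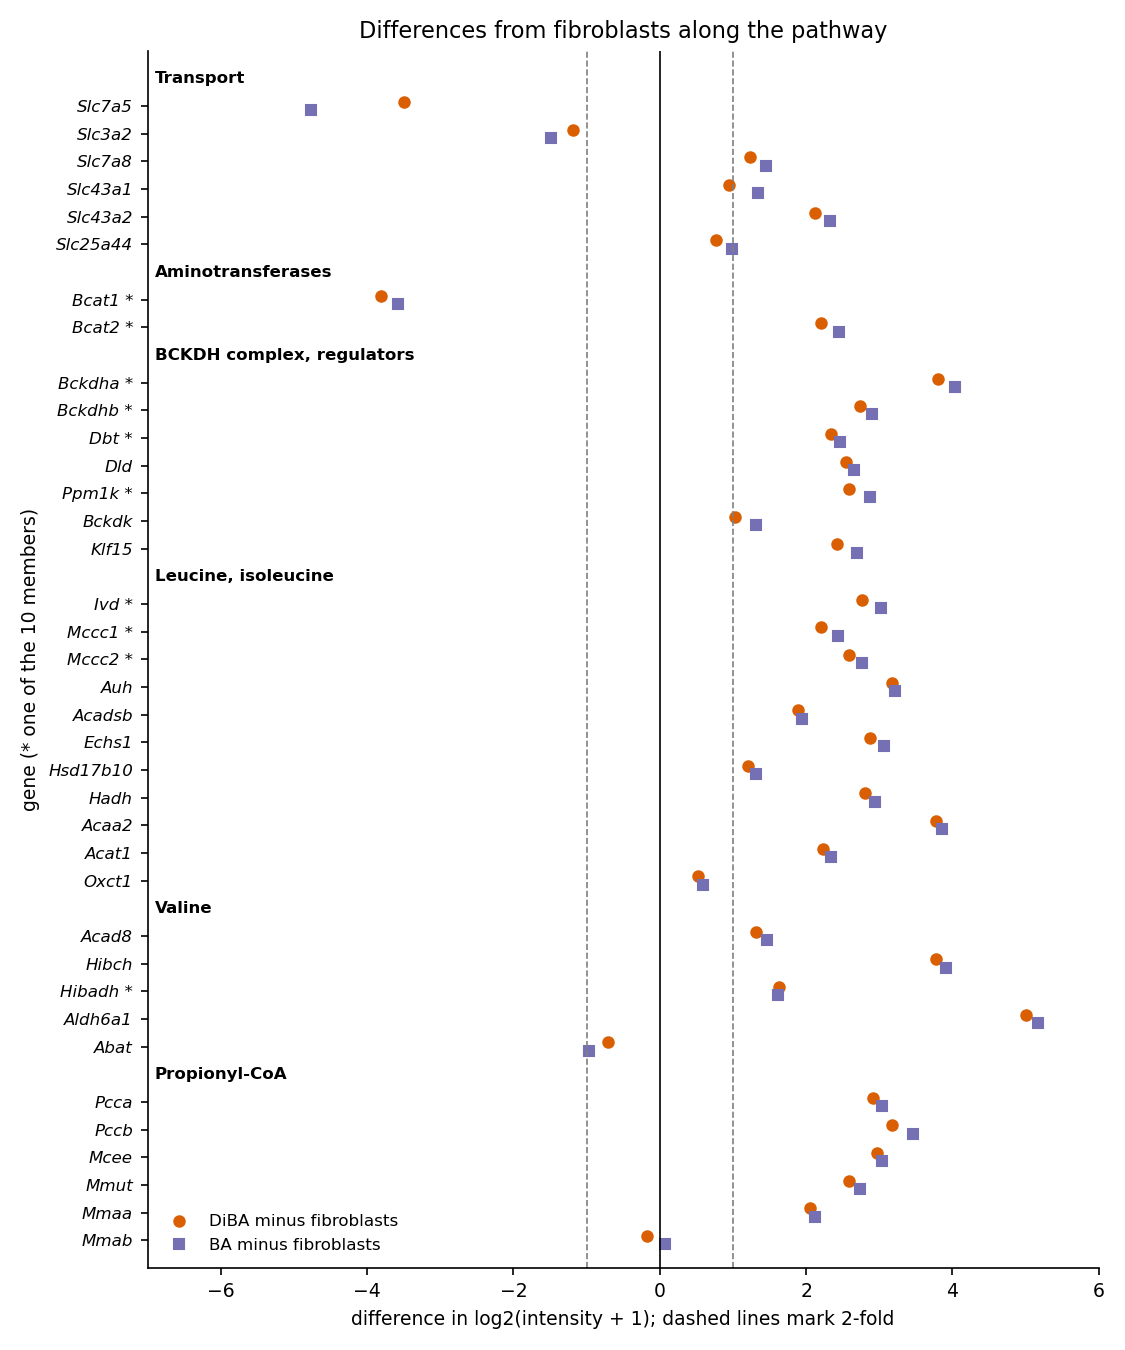
Differences in log2(intensity + 1) of DiBA (circles) and BA (squares) from fibroblasts for the 10 members, marked with asterisks, and 27 other measured genes of the pathway, grouped by step. Bcat1, Slc7a5 and Slc3a2 lie left of the dashed line at 2-fold lower, and 9 members lie right of the line at 2-fold higher.

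The rest of the pathway was read from a list of 29 genes, of which 27 were measured. That list, too, was chosen with earlier results of these data known. In DiBA, 20 of the 27 were at least 2-fold higher than in fibroblasts, 2 were lower and 5 were neither, with a median difference of 2.12. In BA, 21 were higher, 2 lower and 4 neither, with a median of 2.33. Over all genes, 8.54% were called higher and 7.67% lower in DiBA, and 9.51% and 9.59% in BA. The same shares apply to the counts by step below. Values of Bckdk, Klf15, the transporters other than Slc7a5, Mmab, Abat and Oxct1 are given by a choice made once they had been seen. Bckdk, at 1.03 in DiBA, fell short at 0.95 when each array was centred, and Slc43a2 was too dim for a 75th percentile level filter. The higher genes in both were Dld, Bckdk, Klf15, Slc7a8, Slc43a2, Auh, Acadsb, Acad8, Echs1, Hibch, Aldh6a1, Hsd17b10, Hadh, Acaa2, Acat1, Pcca, Pccb, Mcee, Mmut and Mmaa, and Slc43a1 was called in BA, at 1.34, and not in DiBA, at 0.94. Dld, the dehydrogenase subunit that the complex shares with pyruvate dehydrogenase, was 5.84-fold higher in DiBA and 6.34-fold in BA, between the folds of Dbt and Bckdhb. Klf15, a transcription factor known to regulate branched-chain amino acid breakdown in muscle and heart, had 386 in DiBA, 467 in BA and 71.5 in fibroblasts.

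Among the other leucine and isoleucine steps, 7 of 8 genes were higher in each sample. Auh, the methylglutaconyl-CoA hydratase that follows the carboxylase in leucine breakdown, was 9.03-fold higher in DiBA and 9.31-fold in BA. Acaa2, a thiolase, was 13.8-fold and Echs1, an enoyl-CoA hydratase, 7.34-fold higher in DiBA, and Hadh, a dehydrogenase, was higher by 2.81 on the log2 scale. These 3 genes also serve fatty acid oxidation. Of the valine steps, the 4 genes other than Hibadh gave 3 higher in each sample. Hibch, the hydrolase that makes the substrate of Hibadh, had 1348 in DiBA, 1482 in BA and 97.8 in fibroblasts, 13.7-fold higher in DiBA and 15-fold in BA. Aldh6a1, which acts directly after Hibadh, had 3528 in DiBA, 3939 in BA and 109 in fibroblasts. At 32.2-fold higher in DiBA and 35.9-fold in BA it had the highest difference on the whole pathway list, 62nd from the top of all genes in DiBA and 60th in BA.

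Propionyl-CoA, a product of valine and isoleucine, is carried to succinyl-CoA. Of the genes listed for this route, which include the cobalamin genes Mmaa and Mmab, 5 of 6 were higher in each sample. Pccb and Pcca, the subunits of propionyl-CoA carboxylase, were 9.02-fold and 7.51-fold higher in DiBA and 11-fold and 8.20-fold higher in BA. The epimerase Mcee was 7.82-fold and the mutase Mmut 5.99-fold higher in DiBA. Mmab, a cobalamin enzyme, was the gene of this group that was called in neither comparison, at -0.17 in DiBA and 0.07 in BA. Abat and Oxct1 were also called in neither: Abat lay at -0.71 in DiBA and -0.97 in BA, and Oxct1, which activates ketone bodies, at 0.52 in DiBA and 0.59 in BA.

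The amino acid transporters did not all differ in the same direction. Slc7a5, the light chain of the main large neutral amino acid exchanger, had 161 in DiBA, 66.3 in BA and 1835 in fibroblasts. It was 11.3-fold lower in DiBA than in fibroblasts, the 32nd lowest difference of all genes, and 27.3-fold lower in BA, the 24th lowest. Slc3a2, its heavy chain, had 1665 in DiBA, 1343 in BA and 3770 in fibroblasts, at -1.18 in DiBA and -1.49 in BA. Slc43a2, a transporter of the same substrates, had 207 in DiBA, 239 in BA and 46.9 in fibroblasts, with folds of 4.33 in DiBA and 5.01 in BA that became 2.96 and 3.43 with low intensities raised to 69.2. Slc25a44, the mitochondrial carrier of branched-chain amino acids known from brown fat, had 767 in DiBA, 893 in BA and 451 in fibroblasts, and its differences of 0.77 in DiBA and 0.99 in BA did not reach the threshold of 1. Slc7a8 had 319 in DiBA, 371 in BA and 135 in fibroblasts, 2.35-fold higher in DiBA and 2.73-fold in BA. Slc7a5 and Slc3a2, like Bcat1, were lower in DiBA and BA than in fibroblasts.

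**Figure D3:**
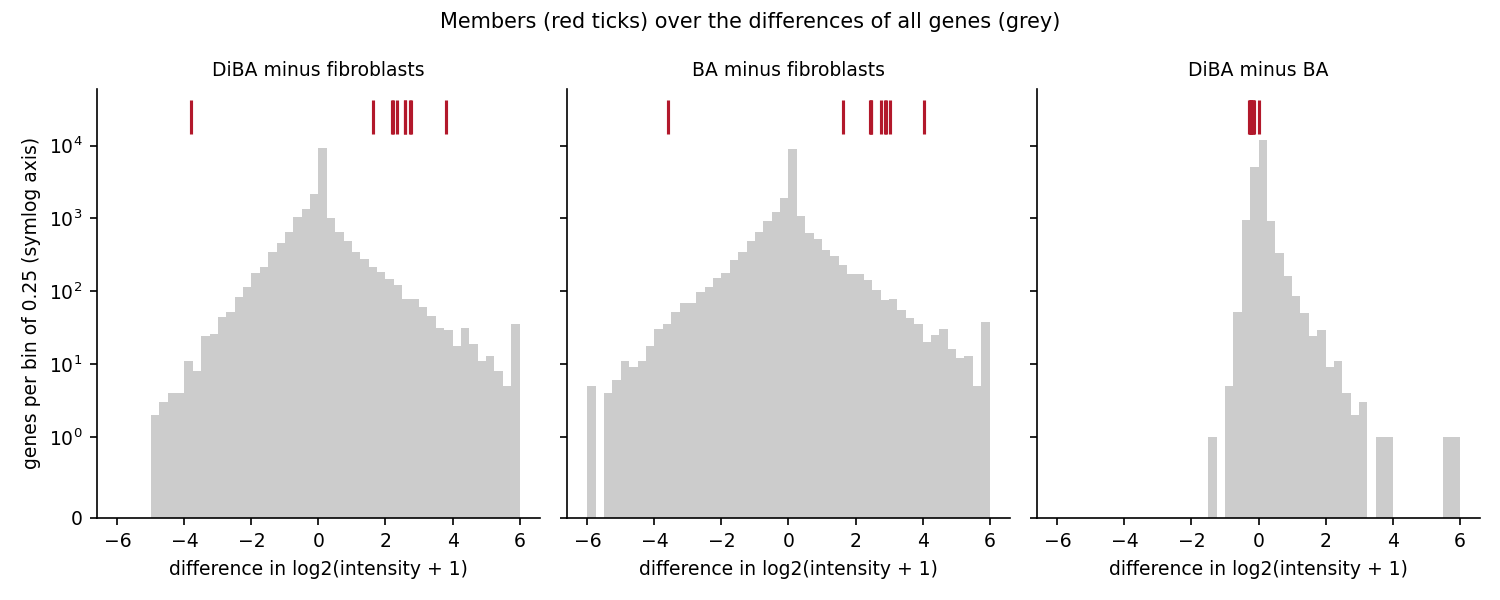
Number of genes (symlog axis) in bins of 0.25 of the log2 difference for DiBA minus fibroblasts, BA minus fibroblasts and DiBA minus BA, with the 10 members as red ticks above. The end bins at -6 and 6 also hold genes beyond them. Bcat1 stands in the left tail of both comparisons with fibroblasts, and all 10 members stand between -0.28 and 0.02 for DiBA minus BA.

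Set directly against BA, DiBA had 0 of the 10 members at 2-fold in either direction, where 0.973% of all genes were called higher and 0% lower. The members' median difference was -0.23, while the median over all genes was 0.00. DiBA was lower than BA for 9 of the 10 members, with differences from -0.13 (Dbt) to -0.28 (Ppm1k) on the log2 scale, while 30.8% of all genes had a difference below 0, 24.1% above 0 and 45% exactly 0. None of the 11 member probe sets carried the same value on any 2 arrays. Among the 10957 genes with unequal values, 56.1% lay below 0, with a median of -0.02. DiBA stood at 82.3% of BA for Ppm1k, 83.3% for Ivd, 83.8% for Bcat2, 85.4% for Bckdha and 91.5% for Dbt. Bcat1, lower than in fibroblasts in both samples, also stood below BA in DiBA, at 85.2%. The differences of Hibadh were 0.00 and 0.03 for its brighter and dimmer probe sets. Without replicates, differences of this size cannot be told apart from variation between arrays.

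The other pathway genes gave a similar picture between DiBA and BA. Over all genes, 30.8% had lower values in DiBA, or 56.1% of those with unequal values, and 0.973% were called higher. Of the 27 measured pathway genes, 24 had lower values in DiBA, with a median of -0.14, and 1 was called higher. That gene was Slc7a5, 2.41-fold higher in DiBA than in BA, or 2.31-fold with its BA intensity raised to 69.2. Slc3a2 and Abat, the other genes with higher values in DiBA, differed by 0.31 and 0.26. Among markers of other cell types, all 8 skeletal muscle markers had lower values in DiBA than in BA, with a median of -0.19, as did all 6 endothelial markers, with a median of -0.26. Macrophage and immune markers were mixed, with a median of -0.06 and a range from -0.34 (Cd74) to 0.55 (Cd68). Brown adipocyte markers had a median of -0.06. Fibroblast markers had a median of 0.34, with Fn1, a fibronectin gene, called at 1.72 and the other 5 between 0.19 and 0.58. The part of these other transcripts in the lower pathway values was not tested.

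**Figure D4:**
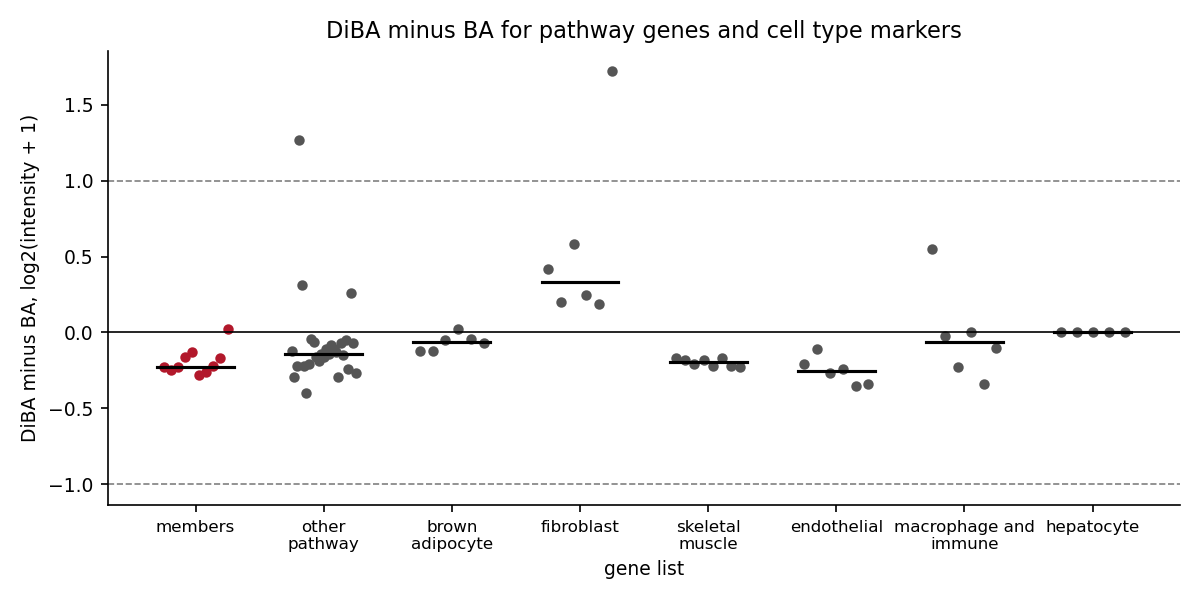
DiBA minus BA in log2(intensity + 1) for each gene of the 10 members (red), the other pathway genes and the marker lists (grey), with a horizontal bar at each list's median and dashed lines at 2-fold. The members' median is -0.23, the skeletal muscle median -0.19 and the endothelial median -0.26, and Slc7a5 is the pathway gene above the upper dashed line.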

How the data were processed

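Total RNA of 3 mouse samples was labelled with a whole-transcript kit and hybridised to 1 array each, per the labels' protocols. The authors deposited 1 linear intensity per probe set, and the submitters' processing notes name Affymetrix Expression Console. Its version, background correction and normalization method were not given in the sources used here. Median intensities of 71.5 (DiBA), 67.7 (BA) and 67.8 (fibroblasts) were close, and values were taken as already normalized. Between 37% and 47.3% of probe sets, by pair of arrays, held equal values. Close medians therefore do not show how brighter values were scaled. Of 28943 probe sets, 21789 had 1 gene symbol, 1621 had several and 5533 were not listed in the platform table. Values were log2(intensity + 1), averaged over a gene's probe sets, which understates the change of dim genes. Groups came from the labels. Precision is limited by the number of arrays, and no p-value was computed. Members and lists were chosen with earlier results of these data known. All members were named. Also named were all other pathway genes called in any comparison and the 3 genes most like each aminotransferase. Values were planned for up to 12 of these pathway genes, those of largest difference from fibroblasts in DiBA. Values of Bckdk, Klf15, Slc7a8, Slc43a1, Slc43a2, Slc3a2, Slc25a44, Mmab, Abat and Oxct1 were added once seen. The RefSeq tables (GRCm38.p6) served for symbols, of which 0 changed, and for promoters. Only the fold calls were tested on simulated arrays, which held planted changes above the threshold and, unlike these data, no equal values. Alternatives covered scaling, level filter, background floor, pseudocount, probe set choice and fold threshold. Python 3.11.15, pandas 2.3.3 and numpy 2.4.6 were used.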

Additional observations from a re-analysis of the deposited data

How the results depend on the processing

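Of 261 recomputed values over 8 alternatives, 258 moved by at most 1.5 times or not at all, 3 moved further and 0 called values changed sign. The uncalled difference of Hibadh between DiBA and BA, 0.02, became -0.06 with each array centred. The 9 members higher and 1 lower than in fibroblasts, in DiBA and in BA, and the 0 called between DiBA and BA were counted again under each alternative. The members' median stayed between 2.32 and 2.43 in DiBA against fibroblasts under both scalings, the floor and a pseudocount of 16, and was 2.46 with the highest probe set. With each array centred on its median, the members' median for DiBA minus BA was -0.30 and that of all genes was -0.08. Centring took Bckdk to 0.95 in DiBA against fibroblasts, under the threshold, which left 19 other pathway genes higher. A 75th percentile filter (246) also left 19 there, and 20 in BA, through the loss of Slc43a2. With that filter, 0 other pathway genes were called higher in DiBA than in BA, since Slc7a5 is dimmer than that on both arrays. Hibadh moved to 2.33 in both comparisons with fibroblasts when the brighter probe set replaced the average, and with low intensities raised to 69.2 it was 1.16 in both. No paired analysis was possible because each group holds 1 array. Readings near or under 69.2, such as Bcat1 in DiBA, Slc7a5 in BA and Ppm1k in fibroblasts, are limited by background.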
